A study of Mus musculus with 40 samples.

Results

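The genes described here build, anchor to or remodel the extracellular matrix of the mouse duodenum: collagens, laminins, other matrix glycoproteins and proteoglycans, integrins, matrix metalloproteinases (MMPs) with their tissue inhibitors (TIMPs), ADAM proteases and serpins. They were taken by symbol, under a rule that uses no measured values but was chosen with earlier results of these data known. It took every probe whose symbol begins with COL and a digit, LAMA, LAMB, LAMC, ITGA, ITGB, MMP and a digit, TIMP and a digit, FBLN, ADAM, THBS or SERPIN, or is FBN1, FN1, BGN, DCN, LUM, SPARC or HSPG2. This rule found 56 probes for 51 symbols among 3045 probes for 2756 symbols. A filter on low counts left 45 of the 56 probes, for 42 symbols, among 2541 probes tested in all. The 11 untested probes were those of Col2a1, Mmp1a, Timp2, Serpind1, Serpinb9g, Serpina3m, Serpina4-ps1 and Serpina3k, both of Mmp12 and 1 of 2 of Serpinf1, and those of Serpina4-ps1 and Serpina3k were at 0 in all 40 libraries.

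RNA was measured in 40 libraries from the duodenum of wildtype male mice of the B6C3F1 hybrid strain, exposed for 28 days. Fixed, paraffin-embedded tissue was scraped from slides, and transcripts were counted by TempO-Seq, which ligates a pair of neighbouring probes on each target RNA and then amplifies and sequences the product. The control group had 5 libraries. Each of the 5 exposed groups had 7 libraries, from animals given hexavalent chromium (Cr(VI), 180 ppm in drinking water) or feed with captan (6000 or 12000 ppm) or folpet (6000 or 16000 ppm). Both of the latter compounds are fungicides with the same trichloromethylthio group, on a tetrahydrophthalimide ring in captan and on an aromatic phthalimide ring in folpet. The sources used here do not give the animals' ages. The labels do not tie each library to a mouse of its own, so every p-value measures only the spread between these libraries, which may be technical.

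Under the intestinal epithelium lies a basement membrane of type IV collagen and laminin, and below it the lamina propria, where fibroblasts lay down fibrillar collagens, collagen VI and fibrillin microfibrils and small proteoglycans such as biglycan. Integrins are alpha-beta pairs of cell-surface receptors that hold cells to this matrix or to one another. The pair of integrin alpha E with beta 7 holds intraepithelial lymphocytes to E-cadherin on epithelial cells. MMPs cut matrix proteins and are held in check by TIMPs, while serpins inhibit serine proteases.

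Col6a3, Fbn1 and Bgn encode the collagen VI alpha 3 chain, fibrillin 1 and biglycan. In the main fit all 3 were lower than control at 12000 ppm captan and at 16000 ppm folpet, as was Itgae. For Bgn at 12000 ppm captan this held in 4 of 9 other settings and in 5 of 12 fits that each left out 1 library. With libraries scaled by their totals alone, only Col6a3 at 16000 ppm folpet still passed. The 250 bases before the annotated start sites of these 3 genes are shown from RefSeq (GRCm38.p6). They are read 5′ to 3′ on the gene's own strand, with GGGCGG or its reverse complement CCGCCC in capitals. The windows are chr1:90843972-90844221 on the minus strand for Col6a3, chr2:125506439-125506688 on the minus strand for Fbn1 and chrX:73483351-73483600 on the plus strand for Bgn.

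Col6a3: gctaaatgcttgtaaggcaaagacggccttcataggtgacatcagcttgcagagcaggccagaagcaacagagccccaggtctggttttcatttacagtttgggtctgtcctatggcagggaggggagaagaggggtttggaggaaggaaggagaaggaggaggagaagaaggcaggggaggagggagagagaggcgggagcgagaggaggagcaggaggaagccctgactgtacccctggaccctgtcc

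Fbn1: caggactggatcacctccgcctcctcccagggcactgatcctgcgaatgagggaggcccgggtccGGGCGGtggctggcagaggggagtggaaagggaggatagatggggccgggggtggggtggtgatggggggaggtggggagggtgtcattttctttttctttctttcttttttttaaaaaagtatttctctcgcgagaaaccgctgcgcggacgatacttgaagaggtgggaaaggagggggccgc

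Bgn: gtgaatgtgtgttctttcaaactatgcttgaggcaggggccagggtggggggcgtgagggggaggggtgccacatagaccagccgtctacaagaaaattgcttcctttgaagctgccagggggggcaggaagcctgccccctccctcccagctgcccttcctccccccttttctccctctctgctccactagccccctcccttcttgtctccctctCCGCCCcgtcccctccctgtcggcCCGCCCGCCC

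On both strands, GGGCGG had 1 match in the Fbn1 window, beginning 185 bases before the start, and 3 in the Bgn window, beginning 34, 10 and 6 bases before it, the last 2 overlapping. The Col6a3 window held none. The same 6 letters occurred in 32.7% of 32851 RefSeq windows of this length, so a match is common. Of the other motifs searched on both strands, CCAAT occurred in 33.8%, TATAAA in 12.4% and TGANTCA in 6.75% of all windows, and none of them in the windows shown. Another pair of members, which code for chains of the same molecule, start close together on opposite strands of chromosome 8. Col4a1 starts at 11312826 on the minus strand and Col4a2 at 11312805 on the plus strand, 21 bases apart. Each thus runs across the start of the other, and the annotated genes overlap there. The overlap, given next, was not searched for motifs and is in lower case throughout, although it holds GGGCGG. The 22 bases from one start to the other are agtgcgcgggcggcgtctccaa on the Col4a2 strand.

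Libraries held 1763440 to 7904819 counts, and 28.5% of all values were 0, so precision is poor for probes with few counts. Libraries differed in how much of their count came from pancreatic acinar genes, which encode digestive enzymes. Their share ran from 17.5 to 68.3% in control libraries, 3.03 to 74.0% with Cr(VI), 0.215 to 29.3% and 0.211 to 46.3% at the lower and higher captan dose, and 0.126 to 34.3% and 11.6 to 38.7% at the lower and higher folpet dose. It exceeded 50% in 5 libraries, control replicates 4 and 5 and Cr(VI) replicates 2, 3 and 7. Control replicate 5 also had the lowest total of its group, 2121824, and had counts in only 19 of the 56 member probes. Levels are given as CPM (counts scaled to a common library size) with TMM, edgeR's normalization factors. Probes differ in efficiency, so levels are compared between groups and not between genes. Where a member's libraries are said to lie wholly above or below those of another group, the share of all tested probes that do so was not counted.

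With all libraries in edgeR's fit, every member called against control was lower in the exposed group. Itgb5 was called higher with Cr(VI) by DESeq2 and in 2 of 12 fits that each left out 1 library. A call here means a Benjamini-Hochberg adjusted p below 0.05 in edgeR's quasi-likelihood test over all 2541 tested probes. With Cr(VI), 2 of 45 member probes were called lower, both of them for Itgae, against 2.99% of all tested probes called lower and 5.94% called in either direction. Captan at 6000 ppm gave 2, Col6a3 and Fbn1, against 1.38% lower and 5.16% either way. The higher captan dose gave 4, Col6a3, Fbn1, Bgn and 1 Itgae probe, against 1.53% and 6.18%. With folpet at 6000 ppm the 2 called members were Col6a3 and Mmp14, against 1.61% and 6.22%. The higher folpet dose gave 7, Col6a3, Fbn1, Bgn, Col4a2, Col6a1 and both Itgae probes, against 4.68% and 12.6%. In the same order, 2.95, 3.78, 4.64, 4.6 and 7.91% of all tested probes were called higher, and no member was.

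As shares of the 45 member probes these calls were 4.44, 4.44, 8.89, 4.44 and 15.6%, in the order Cr(VI), captan 6000 and 12000 ppm and folpet 6000 and 16000 ppm. They lie near the share of all tested probes called in either direction. By probe they lie above the share called lower in each of the 5 comparisons, which is a description with no test. With Cr(VI) this rests on counting 1 gene, Itgae, through both of its probes. By symbol, 1 of 42 was called there. Summed over the 56 member probes, counts made up 0.448 to 0.698% of all non-acinar counts in control libraries, 0.379 to 0.546% with Cr(VI), 0.313 to 0.493% and 0.269 to 0.570% at the lower and higher captan dose, and 0.367 to 0.551% and 0.231 to 0.323% at the lower and higher folpet dose. Of these groups, only the one at 16000 ppm folpet did not overlap the controls. All 5 comparisons use the same 5 control libraries and are not independent of one another. In the same order, the median log2 fold change of the members was -0.18, -0.32, -0.35, -0.21 and -0.50, where that of all tested probes lay between -0.05 and 0.01. Between 2 and 4 of the 45 had a group with no count at all, and without them the members' medians were -0.19, -0.34, -0.36, -0.24 and -0.50. Of the 45 member probes, 27, 33, 34, 30 and 34 had a log2 fold change below 0. These are 60, 73.3, 75.6, 66.7 and 75.6% of them, where 51.5, 48.96, 49.6, 50.02 and 52.3% of all tested probes lay below 0. When libraries were scaled by their totals alone, the median of all probes moved to -0.30, 0.33, 0.44, 0.28 and -0.05 and only 2, 0, 0, 0 and 1 member calls were left, so directions below are relative to the bulk of the probes, as TMM sets it. Across the 6 groups, 7 of 45 member probes were called for any difference in edgeR's test, against 14% of all tested probes, and these were Col6a3, both Itgae probes, Col4a2, Bgn, Fbn1 and Itgb5.

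**Figure D1:**
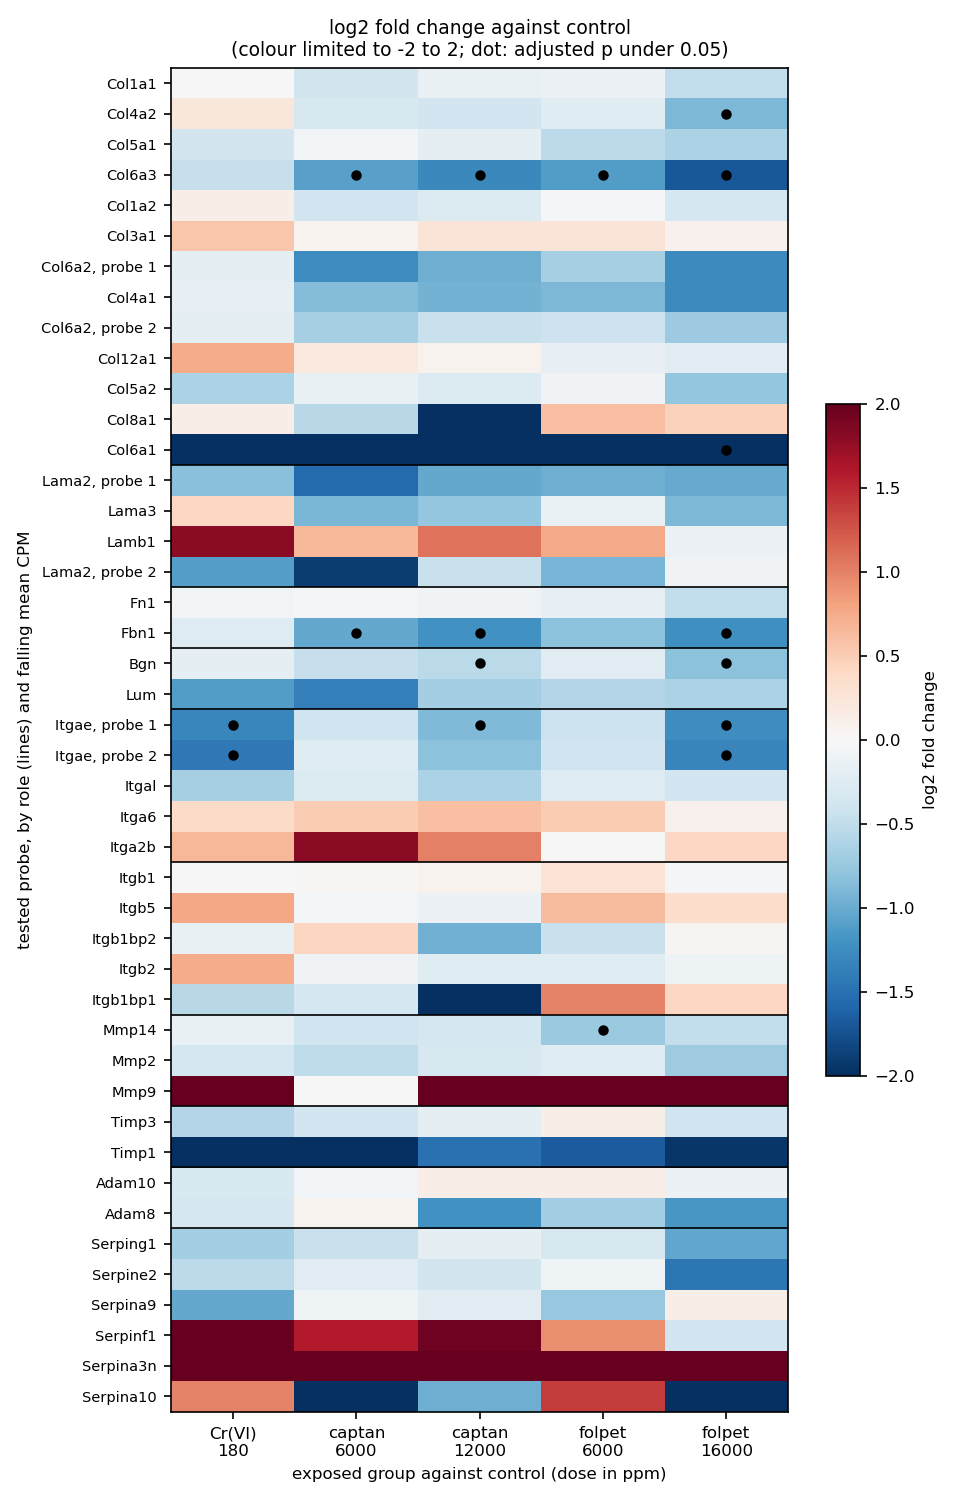
Heat map of log2 fold change against control for 44 of the 45 tested member probes (rows, grouped by role) in the 5 exposed groups (columns, doses in ppm), with colour limited to -2 to 2 and a dot where the adjusted p was under 0.05. All 17 dots mark lower values, on 7 symbols, with 7 dots for folpet at 16000 ppm and 2 to 4 in the other columns; scaled by library totals alone, 3 of the 17 dots remain and Bgn at 12000 ppm captan turns to 0.06.

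Among the collagens, 13 probes were tested, and Col6a3 was the member called in the most comparisons. Col6a3 is the longest of the main chains that make up collagen VI, which forms beaded filaments around cells. Its level in control replicates 1 to 5 was 70.9, 229.7, 162.5, 203 and 157 CPM. The lowest, median and highest of 7 libraries were 95.97, 110.2 and 183 CPM with Cr(VI), 56.4, 66.3 and 114 at 6000 ppm captan and 47.2, 62 and 95.3 at 12000 ppm. They were 40.6, 75.4 and 105 CPM at 6000 ppm folpet and 28.9, 50.6 and 81.1 at 16000 ppm. Control replicate 1 lay well under the other controls, and the libraries below even that one were 4 and 5 of 7 for the lower and higher captan dose, 2 and 6 of 7 for the lower and higher folpet dose, and 0 of 7 for Cr(VI).

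The group mean of Col6a3 fell from 165 ± 60.3 CPM (SD, n = 5) in controls to 50.6 ± 15.7 (SD, n = 7) at 16000 ppm folpet, a log2 fold change of -1.70 ± 0.26 (SE; 0.308-fold, edgeR adjusted p = 4.78e-06). It was -1.09 ± 0.26 at 6000 ppm captan (adjusted p = 0.00558), -1.29 ± 0.26 at 12000 ppm captan (0.000817) and -1.12 ± 0.26 at 6000 ppm folpet (0.00319). With Cr(VI) the log2 fold change was -0.46 ± 0.26 and did not pass (adjusted p = 0.326). The call at 16000 ppm folpet held under each of the 9 other analysis settings tried and with each of the 12 libraries left out in turn. With library totals alone the calls at the other 3 fungicide doses were lost, and the one at 6000 ppm captan was also lost without the 5 libraries over 50% acinar and when only captan 6000 ppm and control entered the fit.

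**Figure D2:**
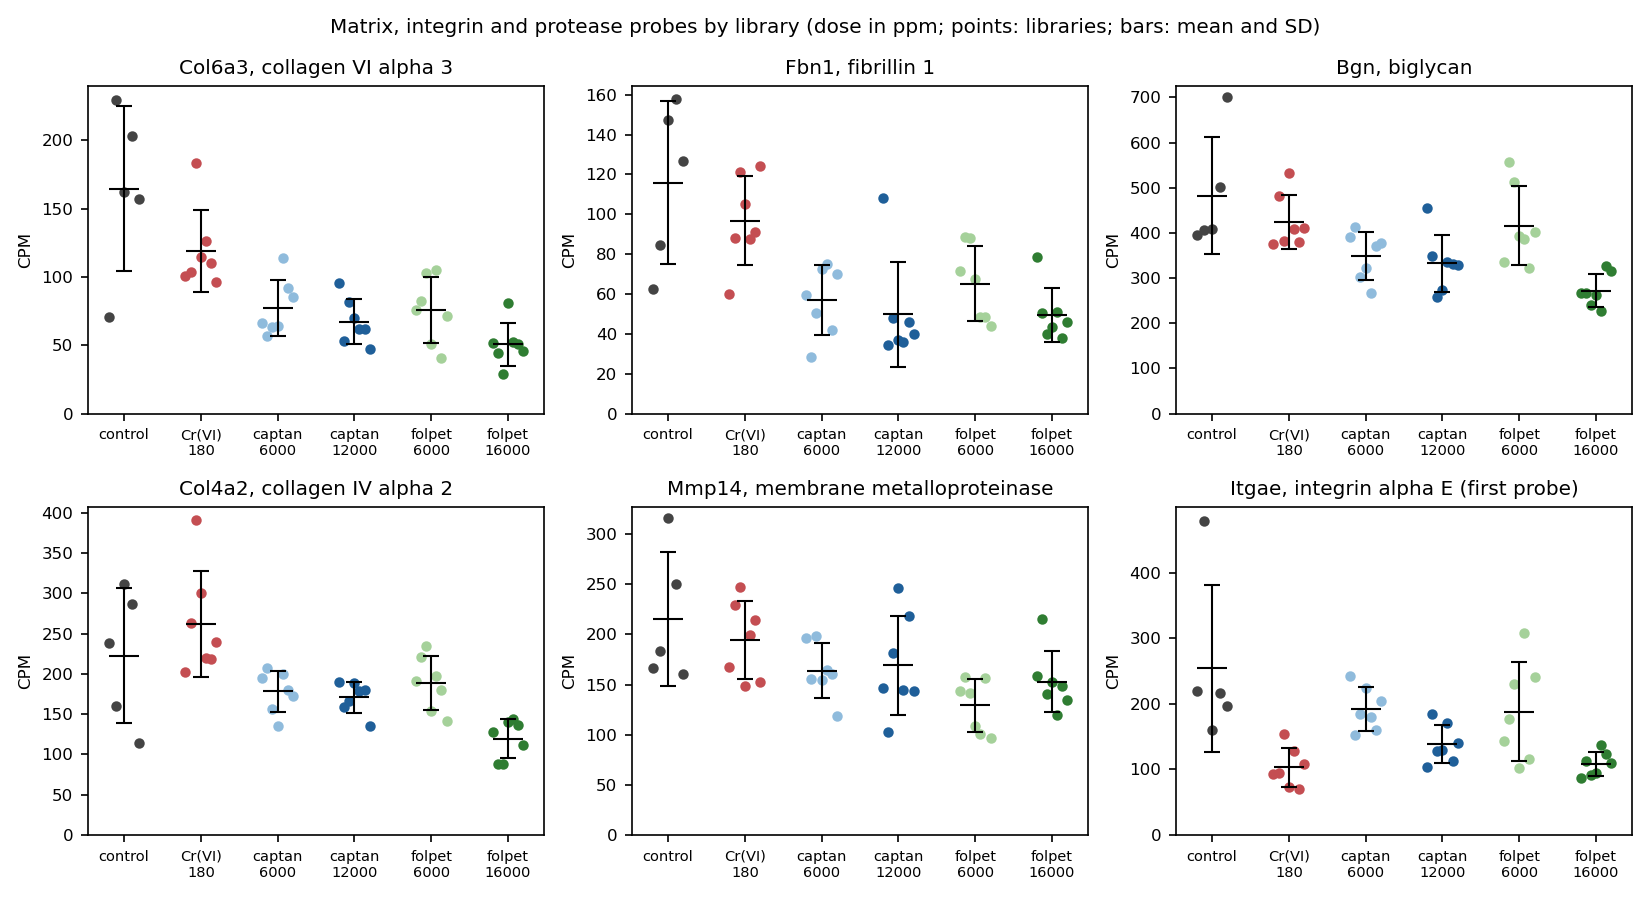
CPM of Col6a3, Fbn1, Bgn, Col4a2, Mmp14 and the first Itgae probe in each library (points) of the 6 groups (doses in ppm), with the group mean and SD as bars. The Col6a3 median runs from 162.5 CPM in controls to 50.6 at 16000 ppm folpet, and all 7 Cr(VI) libraries lie below all 5 controls for the first Itgae probe; by library totals alone, Bgn at 12000 ppm captan is not below control.

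Of the other chains of collagen VI, in the main fit Col6a2 was not called and Col6a1 was called at 1 dose. The Col6a2 probe with more counts was at 74.4, 79.1, 156.5, 143 and 0 CPM in control replicates 1 to 5, and its median was 36.7 at 6000 ppm captan and 33.02 at 16000 ppm folpet. Its log2 fold changes there were -1.26 ± 0.49 (edgeR adjusted p = 0.126) and -1.28 ± 0.49 (0.0783), and neither passed; those of the other Col6a2 probe were -0.66 and -0.73. The single control at 0 was replicate 5, and without it Col6a2 was called at 6000 ppm captan, 12000 ppm captan and 16000 ppm folpet. Without the libraries over 50% acinar, which include that one, it was called at 6000 ppm captan and 16000 ppm folpet. DESeq2 called it at 16000 ppm folpet. Col6a1 was called lower at 16000 ppm folpet (adjusted p = 0.0196), but it had counts in only 8 of 40 libraries. In controls these were 14 counts in replicate 1 and 52 in replicate 5, and all 7 libraries at 16000 ppm were at 0. The call was lost without control replicate 5, with DESeq2, with limma, with library totals alone and without the libraries over 50% acinar. When the other groups were left out of the fit the probe was not tested, and no fold is given for it.

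Col4a1 and Col4a2 encode the paired chains of type IV collagen, the network of basement membranes. Col4a2 was at 239, 160.3, 312, 287 and 114 CPM in control replicates 1 to 5. Lowest, median and highest values were 141, 192 and 235 CPM at 6000 ppm folpet and 88.4, 128 and 144 at 16000 ppm. They were 203, 239.7 and 392 CPM with Cr(VI), 136, 179.7 and 208 at 6000 ppm captan and 135, 179 and 189.5 at 12000 ppm captan. Only 3 of 7 libraries at 16000 ppm folpet lay below the lowest control, yet the log2 fold change of -0.90 ± 0.19 passed (edgeR adjusted p = 0.000751). In the other groups the log2 fold change of Col4a2 was 0.23 with Cr(VI), -0.32 and -0.38 with captan and -0.24 at 6000 ppm folpet, and none passed (adjusted p from 0.246 to 0.598). By library totals alone the call at 16000 ppm folpet was lost, the Cr(VI) value turned to -0.22 and that of 12000 ppm captan to 0.03. Col4a1 was at 81.1, 132, 82.8, 66.4 and 0 CPM in controls, with a median of 29.7 at 16000 ppm folpet. Its log2 fold change there was -1.28 ± 0.46 and did not pass (edgeR adjusted p = 0.0589), though it passed there in 4 of 9 other settings. Without control replicate 5, the library at 0, it passed in all 4 fungicide comparisons.

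Col1a1, the alpha 1 chain of fibrillar type I collagen, had the highest mean CPM of the collagen probes and was called in no comparison in the main fit. It was at 374, 250, 591, 649.8 and 291 CPM in the controls and ranged from 309 to 546 with Cr(VI) and from 250.2 to 406 at 16000 ppm folpet, so the groups overlapped throughout. Its log2 fold change ran from -0.49 ± 0.21 at 16000 ppm folpet (edgeR adjusted p = 0.112) to 0.01 ± 0.21 with Cr(VI) (0.998). DESeq2 called it lower at 16000 ppm folpet, as did edgeR without control replicate 2. Against 16000 ppm folpet it was called higher with Cr(VI) by DESeq2, with DESeq2's size factors in edgeR, and when only the compared groups were fitted. Over the 13 collagen probes, 7 lay below 0 with Cr(VI), where 51.5% of all tested probes did. In each fungicide group 11 did, where 48.96 to 52.3% of all tested probes did. The collagens' median log2 fold changes were -0.16 with Cr(VI), -0.39 and -0.38 at the lower and higher captan dose, and -0.24 and -0.73 at the lower and higher folpet dose.

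No laminin probe of 4 was called. The Lama2 probe with more counts, for the alpha 2 chain of muscle and mesenchymal basement membranes, was at 39.7, 26.9, 34.02, 63.2 and 0 CPM in controls, and its medians in the exposed groups ran from 7.67 at 6000 ppm captan to 18.1 at 16000 ppm folpet. Its largest log2 fold change was -1.55 ± 0.66, at 6000 ppm captan, with an edgeR adjusted p of 0.170. The other Lama2 probe gave -1.89 there.

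Among the other matrix glycoproteins Fbn1 was called and Fn1 was not. Fibrillin 1 is the main protein of the microfibrils that carry elastin and bind latent TGF-beta. Fbn1 was at 62.4, 84.4, 147.5, 158 and 127 CPM in control replicates 1 to 5. The lowest, median and highest libraries were at 59.9, 90.9 and 124 CPM with Cr(VI), 28.5, 59.7 and 75 at 6000 ppm captan and 34.3, 39.8 and 108 at 12000 ppm. They were 43.8, 67.8 and 88.6 CPM at 6000 ppm folpet and 38.2, 45.9 and 78.3 at 16000 ppm. Below the lowest control lay 4 and 6 of 7 captan libraries at the lower and higher dose, 3 and 6 of 7 folpet libraries, and 1 of 7 with Cr(VI).

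Fbn1 fell by the test at both captan doses and at the higher folpet dose. Its log2 fold change was -1.02 ± 0.29 at 6000 ppm captan (edgeR adjusted p = 0.0227), -1.21 ± 0.29 at 12000 ppm captan (0.00490) and -1.22 ± 0.29 at 16000 ppm folpet (0.00214). It was -0.83 ± 0.29 at 6000 ppm folpet (adjusted p = 0.0741) and -0.26 ± 0.29 with Cr(VI) (0.725), neither passing. All 3 calls were lost with library totals alone and without the 5 libraries over 50% acinar. The latter setting also leaves out control replicates 4 and 5, at 158 and 127 CPM. Fewer controls and the acinar share cannot be told apart there. Both captan calls were also lost when only the compared groups were fitted, and that at 6000 ppm with limma, with the acinar share as a covariate, and without control replicate 3 or 4.

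Fibronectin (Fn1), which links integrins to collagen, was at 154, 185, 217, 304 and 97.3 CPM in the controls. Its libraries ranged from 144 to 220.5 CPM with Cr(VI) and from 95.7 to 170.5 at 16000 ppm folpet. The log2 fold change at 16000 ppm folpet was -0.50 ± 0.19 and did not pass (edgeR adjusted p = 0.0727). It was called there in 3 of 9 alternatives, DESeq2, limma and DESeq2's size factors in edgeR, and without control replicate 5. In the other groups it lay between -0.16 and -0.04.

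Of the 2 proteoglycans tested, Bgn was called at the higher dose of both fungicides. Biglycan is a small leucine-rich proteoglycan that binds collagen fibrils. Its level was 395, 407, 409.6, 501 and 702 CPM in control replicates 1 to 5. Lowest, median and highest values were 266, 371 and 412 CPM at 6000 ppm captan, 259, 331 and 455 at 12000 ppm captan, 322, 394 and 557 at 6000 ppm folpet and 227, 266 and 327 at 16000 ppm folpet. With Cr(VI) they were 375, 408 and 533 CPM. All 7 libraries at 16000 ppm folpet lay below all 5 controls, while in the other groups 3 to 6 of 7 lay below the lowest control.

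At 16000 ppm folpet the log2 fold change of Bgn was -0.82 ± 0.16 (edgeR adjusted p = 0.000143) and at 12000 ppm captan it was -0.53 ± 0.16 (0.0282). The values of -0.47 ± 0.16 at 6000 ppm captan (0.0678), -0.21 ± 0.16 at 6000 ppm folpet (0.537) and -0.18 ± 0.16 with Cr(VI) (0.606) did not pass. Scaled by library totals alone, both calls were lost, the captan 12000 ppm value turned to 0.06 and the folpet 6000 ppm value to 0.19. Without the libraries over 50% acinar the Cr(VI) value turned to 0.10 and the folpet 6000 ppm value to 0.06. The captan 12000 ppm call was also lost with limma, with the acinar share as a covariate, without the libraries over 50% acinar, when only the compared groups were fitted, and without control replicate 4 or 5 or any of captan replicates 3 to 7. Lumican (Lum), a related proteoglycan, was at 21.8, 15.03, 59.5, 51.6 and 54.04 CPM in the controls. Its log2 fold change was -1.36 ± 0.53 at 6000 ppm captan (edgeR adjusted p = 0.121) and -1.12 ± 0.53 with Cr(VI) (0.212). It passed in no comparison in the main fit. At 6000 ppm captan it was called in 1 of 9 other settings, DESeq2, and in 1 of 12 fits that each left out 1 library.

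Itgae was the member that fell with Cr(VI), on both of its probes. It encodes integrin alpha E (CD103), which marks intraepithelial lymphocytes and some dendritic cells of the gut. The first probe, the one with more counts, was at 219, 479, 159.6, 216 and 196 CPM in control replicates 1 to 5. It ran through 70.6, 95.3 and 155 CPM (lowest, median and highest) with Cr(VI), 152, 184 and 243 at 6000 ppm captan and 104, 129 and 184 at 12000 ppm. With folpet it ran through 101.5, 178 and 308 CPM at 6000 ppm and 86.2, 109 and 137 at 16000 ppm. Every library with Cr(VI) and every library at 16000 ppm folpet lay below every control, although control replicate 2 stood high above the rest, whereas 5 of 7 at 12000 ppm captan did so and 1 and 3 of 7 at the lower doses of captan and folpet.

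The log2 fold change of this Itgae probe was -1.30 ± 0.24 with Cr(VI) (edgeR adjusted p = 0.000467), -1.24 ± 0.24 at 16000 ppm folpet (0.000163) and -0.88 ± 0.24 at 12000 ppm captan (0.0160). It did not pass at 6000 ppm captan (-0.40, 0.376) or 6000 ppm folpet (-0.43, 0.330). The other probe was at 149.9, 231, 101, 77.7 and 143 CPM in controls and at a median of 51.5 with Cr(VI), 71.7 at 12000 ppm captan and 51.4 at 16000 ppm folpet. On that probe the log2 fold change was -1.43 ± 0.29 with Cr(VI) (adjusted p = 0.00114), -1.32 ± 0.29 at 16000 ppm folpet (0.00106) and -0.82 ± 0.29 at 12000 ppm captan (0.0751), the last not passing. Both probes read the same gene in the same libraries and are not replicates. Both Cr(VI) calls held under the 9 other settings and with each of 12 libraries left out in turn. The calls of both probes at 16000 ppm folpet were lost with library totals alone. The captan 12000 ppm call was lost with library totals alone, when only the compared groups were fitted, and without control replicate 2.

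The marker lists of cell types were fixed with earlier results of these data known. Of the 13 leukocyte markers, 7 had a probe and 6 were tested, and 1 of the 6 was called lower in each exposed group and 2 at 16000 ppm folpet. The 7 markers' summed level ranged from 8470 to 25764 CPM in controls, 2747 to 5662 with Cr(VI), 4717 to 12224 and 3373 to 8230 at the lower and higher captan dose, and 3025 to 11888 and 2090 to 5868 at the lower and higher folpet dose. Most of that sum is Cd74, whose product chaperones MHC class II, which fell in all 5 exposed groups with log2 fold changes of -1.95 with Cr(VI), -1.25 and -1.74 with captan and -1.26 and -2.28 with folpet. Cd74 thus also fell at 6000 ppm captan and 6000 ppm folpet, where neither Itgae probe passed. Csf1r, a macrophage receptor, also fell at 16000 ppm folpet. Ptprc, which encodes the pan-leukocyte protein CD45, was not called in any group, with medians of 46.6 CPM in controls, 24.4 with Cr(VI) and 31.6 at 16000 ppm folpet. In bulk tissue, fewer cells of a type and less RNA per cell cannot be told apart, and the part of these cells in the Itgae values was not tested.

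The leukocyte integrins Itgal and Itgb2, named here after their values were seen, were not called. Itgal, the alpha chain of LFA-1, had a log2 fold change of -0.67 with Cr(VI) (95% interval -1.65 to 0.32) and -0.39 at 16000 ppm folpet (-1.37 to 0.59). Itgb2, its beta chain and itself one of the 7 leukocyte markers, had 0.73 (-0.87 to 2.34) and -0.10 (-1.67 to 1.47). All 4 intervals hold 0.

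**Figure D3:**
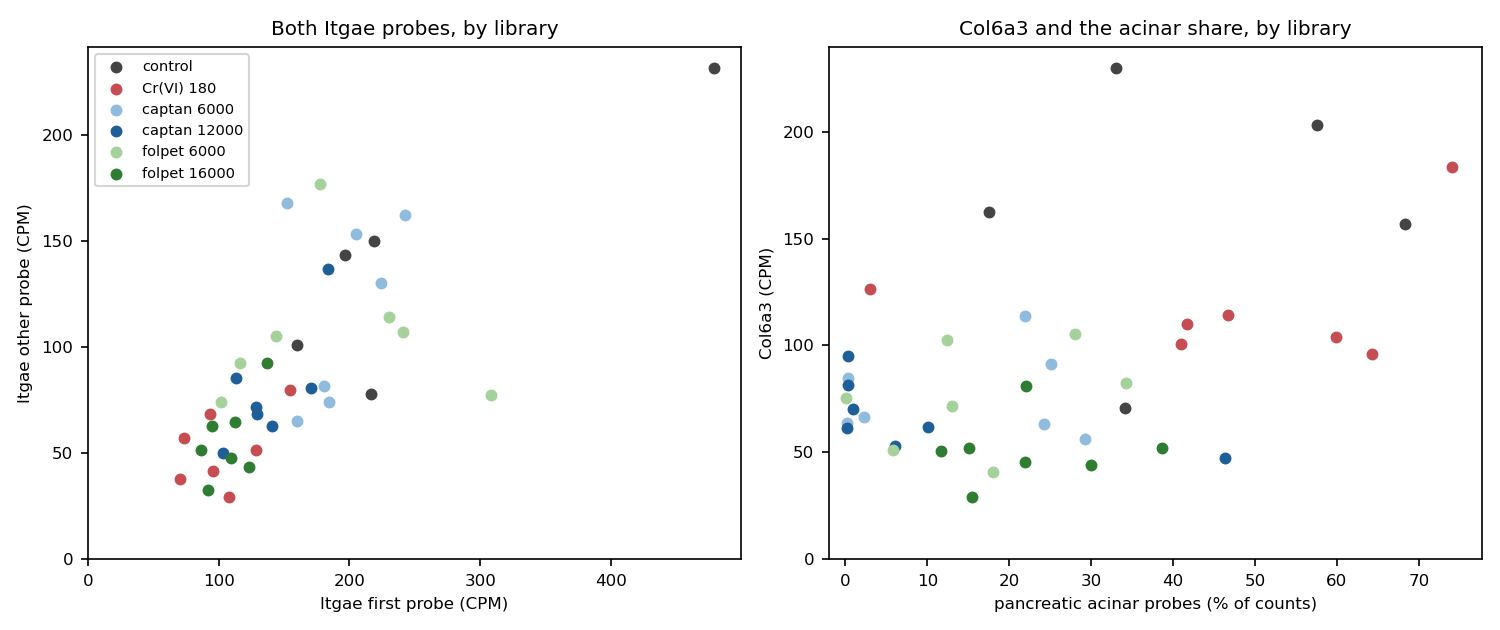
Left, the CPM of the first Itgae probe against the other Itgae probe in each of the 40 libraries, coloured by group; right, Col6a3 CPM against the share of counts from pancreatic acinar probes. Cr(VI) and folpet 16000 ppm libraries lie at the low end of both Itgae probes, and Col6a3 is lowest at 16000 ppm folpet, where the acinar share runs from 11.6 to 38.7%.

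With all libraries in edgeR's fit, no integrin beta probe was called against control. Itgb5, whose product pairs with integrin alpha v to bind vitronectin, was at 49.7, 36.6, 89.4, 59.4 and 43.2 CPM in control replicates 1 to 5 and at 43.2, 95.98 and 143 (lowest, median and highest) with Cr(VI). It was at 33.8, 56.7 and 85.2 CPM at 6000 ppm captan, 30.05, 50 and 69.5 at 12000 ppm captan, 62.5, 79.7 and 129.7 at 6000 ppm folpet and 60.6, 71.3 and 83.1 at 16000 ppm folpet. Above the highest control lay 5 of 7 libraries with Cr(VI) and 2 of 7 at 6000 ppm folpet, and every group overlapped the controls. The log2 fold change against control was 0.77 ± 0.28 with Cr(VI) (edgeR adjusted p = 0.0886) and 0.64 ± 0.28 at 6000 ppm folpet (0.183), neither passing. With Cr(VI) it was called higher by DESeq2, without control replicate 3 and without Cr(VI) replicate 6. Itgb1, the shared beta 1 chain of most matrix-binding integrins, was at 330.3, 181, 147, 169 and 88.3 CPM in controls and had log2 fold changes between -0.02 and 0.28, all with an adjusted p of 0.604 or more. Itgb1bp1, which binds the beta 1 tail, had counts in 1 control library and in 0 of 7 libraries at 12000 ppm captan (adjusted p = 0.0927), and its probe is too sparse to rank the groups.

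Of the 3 MMP probes tested, Mmp14 was called at 1 dose. Mmp14 is anchored in the membrane, cuts fibrillar collagen and activates pro-MMP2. It was at 166.5, 183.5, 315.5, 250.5 and 160.3 CPM in control replicates 1 to 5. Its lowest, median and highest libraries were at 96.8, 142 and 158 CPM at 6000 ppm folpet and 119.8, 149 and 215 at 16000 ppm. They were 148, 199.7 and 247 CPM with Cr(VI), 118, 160.1 and 198 at 6000 ppm captan and 102, 146 and 247 at 12000 ppm captan. All 7 libraries at 6000 ppm folpet lay below every control, as did 6 of 7 at 16000 ppm.

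The log2 fold change of Mmp14 was -0.74 ± 0.20 at 6000 ppm folpet (edgeR adjusted p = 0.0150) and -0.50 ± 0.20 at 16000 ppm (0.0974). The difference of the higher from the lower folpet dose was 0.24 (95% interval -0.13 to 0.61) and did not pass (adjusted p = 0.805). The 6000 ppm call was lost with library totals alone, when only the compared groups were fitted and without control replicate 3. With Cr(VI) and captan the values were -0.15, -0.40 and -0.35, of which the last turned to 0.05 by library totals and the first to 0.04 without control replicate 3.

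The inhibitors and the ADAM and serpin probes gave no call in the main fit. Timp3, a TIMP that stays bound in the matrix, was at 23.1, 0, 9.14, 32.2 and 34.2 CPM in the controls and had log2 fold changes from -0.59 to 0.11. Adam10, a membrane protease that sheds cell-surface proteins such as Notch receptors, was at 445, 360.4, 307.5, 205 and 221 CPM in controls and had log2 fold changes from -0.30 to 0.14. Their adjusted p-values in edgeR's test ran from 0.773 to 0.962 for Timp3 and from 0.374 to 0.955 for Adam10.

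Serping1, the C1 inhibitor of the complement system, was at 75.7, 122, 87.3, 79.5 and 0 CPM in controls. Its median was 26.7 at 16000 ppm folpet, with a log2 fold change of -1.04 ± 0.42 (edgeR adjusted p = 0.0997). Without control replicate 5, where it was at 0, it was called lower with Cr(VI) and at 16000 ppm folpet. At 16000 ppm folpet it was also called lower by DESeq2 and without the libraries over 50% acinar. Serpina3n, an acute-phase protease inhibitor, was at 0 in all 5 controls and had counts in 1 to 4 of 7 libraries of each exposed group, with an adjusted p of 0.175 or more.

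Between doses, folpet had 3 member calls and captan none. From 6000 to 16000 ppm folpet, Bgn fell by 0.61 ± 0.14 on the log2 scale (SE, edgeR adjusted p = 0.0143), Col4a2 by 0.66 ± 0.18 (0.0350) and the first Itgae probe by 0.80 ± 0.22 (0.0386), against 1.14% of all tested probes called lower and 1.73% either way. For Bgn and Col4a2, 6 of 7 libraries at 16000 ppm lay below the lowest at 6000 ppm. The step in Col6a3 was -0.58 ± 0.24 and did not pass (0.283). These calls were fragile. All 3 were lost with library totals alone and without folpet 6000 ppm replicate 2, and of 14 fits leaving out a library in turn, Bgn was called in 13, Col4a2 in 6 and Itgae in 5.

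From 6000 to 12000 ppm captan, no member was called by edgeR, where 0% of all tested probes were. At an unadjusted p under 0.05 in edgeR's test there were 5 of 45 members, where 5.82% of all tested probes were. DESeq2 and limma called 0 members. The log2 difference between doses was -0.48 ± 0.22 for the first Itgae probe (95% interval -0.91 to -0.04) and -0.20 ± 0.24 for Col6a3 (-0.68 to 0.28). A change in Col6a3 of the size seen between control and captan lies outside that interval.

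Captan and folpet were fed at one common dose, 6000 ppm, and this is the 1 pair of compounds that could be compared at a matched dose and time. No member was called by edgeR between them, where 0.157% of all tested probes were. At an unadjusted p under 0.05 there were 3 of 45 members, where 5.12% of all tested probes were. DESeq2 called 1, an Mmp12 probe that edgeR's filter had removed, and limma 0. The log2 difference of captan from folpet was 0.03 for Col6a3 (95% interval -0.45 to 0.51), -0.19 for Fbn1 (-0.72 to 0.34), -0.25 for Bgn (-0.54 to 0.03) and 0.03 for the first Itgae probe (-0.40 to 0.47). For Col6a3 a difference beyond these bounds in either direction is not supported by the interval, but smaller ones remain possible. For Itgb5 the difference was -0.68 ± 0.25, lower with captan, with an unadjusted p of 0.00902 and an adjusted p of 0.437. The tetrahydrophthalimide and the phthalimide compound were therefore not told apart by these genes at this dose, which does not show that they act alike. The higher doses, 12000 ppm of captan and 16000 ppm of folpet, differ and were not compared.

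Cr(VI) was also set against the higher dose of each fungicide, in 2 comparisons added after the data were seen. Against 12000 ppm captan, 4 members were called higher with Cr(VI), where 1.5% of all tested probes were called higher, 3.15% lower and 4.64% either way. These were Fbn1 (0.95 ± 0.27, edgeR adjusted p = 0.0244), Itgb5 (0.89 ± 0.25, 0.0264), Col4a2 (0.62 ± 0.18, 0.0281) and Col6a3 (0.83 ± 0.24, 0.0319). For Col6a3 and Col4a2 every Cr(VI) library lay above every 12000 ppm captan library. None of the 4 was called with the acinar share as a covariate, without the libraries over 50% acinar, or without Cr(VI) replicate 3 or captan 12000 ppm replicate 5. By library totals alone the median of all probes moved to -0.78, Col4a2 turned to -0.25, and the 4 calls gave way to 4 lower ones (Adam10, Serping1 and both Itgae probes).

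Against 16000 ppm folpet, 4 members were called higher with Cr(VI), where 1.97% of all tested probes were called higher, 5.35% lower and 7.32% either way. They were Col4a2 (1.13 ± 0.18, edgeR adjusted p = 1.88e-05), Col6a3 (1.24 ± 0.24, 0.000411), Bgn (0.64 ± 0.14, 0.00223) and Fbn1 (0.96 ± 0.27, 0.0143). Every Cr(VI) library lay above every folpet 16000 ppm library for Col4a2, Col6a3 and Bgn, and 6 of 7 did for Fbn1. The same full separation was seen for Col4a1, which was not called. All 4 calls held with each of 14 libraries left out in turn, all 4 were lost with library totals alone, and that of Fbn1 was also lost without the libraries over 50% acinar. Itgae, which fell in both groups against control, differed between them by -0.06 on its first probe (95% interval -0.50 to 0.38).

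**Figure D4:**
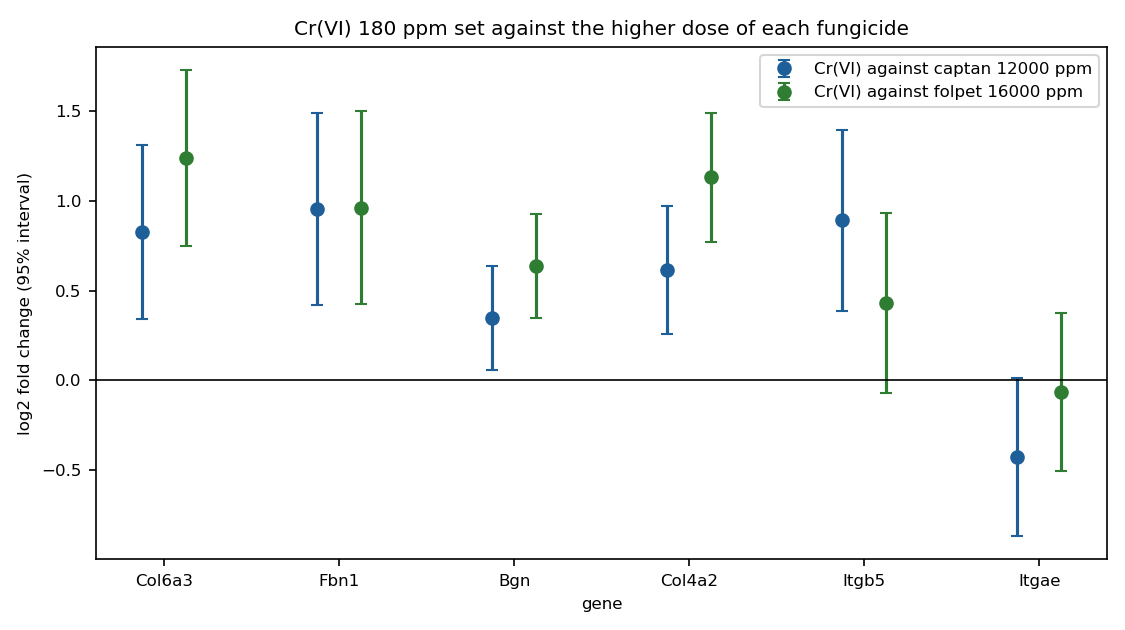
log2 fold change with its 95% interval for Col6a3, Fbn1, Bgn, Col4a2, Itgb5 and the first Itgae probe, with Cr(VI) set against 12000 ppm captan (blue) and against 16000 ppm folpet (green). Col6a3, Fbn1 and Col4a2 lie above 0 in both comparisons and the Itgae interval includes 0 in both; by library totals alone none of these calls remains and Col4a2 turns to -0.25 against captan.

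Of 11 fixed smooth muscle markers 6 had a probe, and 0 were called lower with Cr(VI), 1 at each captan dose, and 2 and 3 at the lower and higher folpet dose. Their summed level ranged from 1793 to 3369 CPM in controls (median 1953), 1524 to 2100.1 with Cr(VI) (1691.5), 1250.8 to 2093 and 1474 to 2793 at the lower and higher captan dose (1622 and 1705), and 1313 to 2087 and 1483.5 to 1753 at the lower and higher folpet dose (1519 and 1569.9). Acta2, smooth muscle actin, fell in the 4 fungicide groups, by 0.84 and 0.67 on the log2 scale with captan at the lower and higher dose and by 0.92 and 0.98 with folpet. Myl9 fell at both folpet doses and Cnn1 at the higher one, both of them parts of the contractile apparatus. Of the fixed fibroblast markers 6 of 9 had a probe, 4 of them members, and none was called in any group. Their summed median was 653.9 CPM in controls and 525.8 at 16000 ppm folpet, with ranges of 539.2 to 1089.6 and 427.8 to 686.8. None of the 6 endothelial probes was called either. Of 13 fixed enterocyte markers 3 had a probe, and 2 were called higher with Cr(VI), 1 and 3 at the lower and higher captan dose and 1 and 3 at the lower and higher folpet dose. Apoa1, an apolipoprotein that enterocytes secrete, rose in all 5 groups. The fatty acid binding gene Fabp1 rose with Cr(VI), at 12000 ppm captan and at 16000 ppm folpet, and Fabp2 at the higher dose of each fungicide. The summed level of the 3 ranged from 17049 to 60069.7 CPM in controls, 59825 to 79467 with Cr(VI), 55650.2 to 78663 and 60418 to 87152 at the lower and higher captan dose, and 43916 to 96657 and 68500.0 to 90760.4 at the lower and higher folpet dose. At the higher dose of each fungicide no library overlapped the controls. The part of smooth muscle and of enterocytes in the matrix values was not tested.

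Genes that work beside the members were counted from lists. Of 8 tested genes that process or cross-link collagen, P4hb, a subunit of prolyl 4-hydroxylase, rose at 16000 ppm folpet (log2 fold change 0.62) and none fell in any group. Of 7 tested genes for other matrix proteins, Ecm1 fell with Cr(VI) (-0.74) and at 16000 ppm folpet (-0.79). None of 6 TGF-beta signalling genes was called in any group. Among 12 probes for focal adhesion and integrin signalling, Flna, which ties integrins to actin, fell in all 5 groups, with log2 fold changes of -1.63 with Cr(VI), -1.64 and -1.15 with captan and -1.84 and -2.24 with folpet. Fyn, a Src-family kinase, fell with Cr(VI) (-2.06) and at 16000 ppm folpet (-2.13), and Cav1 fell at 12000 ppm captan (-1.02) and 16000 ppm folpet (-1.06), while Rac1 rose at both folpet doses (0.55 and 0.57). Of 7 tested probes for the plasminogen system and cathepsins, Plau, the urokinase, fell at 6000 ppm folpet (-1.33), and 1 of the 2 probes of Bsg, an inducer of MMPs, rose at both folpet doses (0.51 and 0.53). The other Bsg probe, at lower counts, did not pass and had log2 fold changes of -0.91 and -0.38.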

How the data were processed

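The authors deposited 1 table of raw counts per TempO-Seq probe, in whole numbers, whose values and header show no normalization. Per the submitters' processing notes, bcl2fastq 2.17.1.14, Bowtie and the build mm9 were used. The sources used here do not say whether low counts had been taken out. Columns were matched to samples by title, and replicate numbers only name libraries.

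The analysis used edgeR 4.0.16 in R 4.3.3: filterByExpr (minimum count 10, minimum total 15), TMM, and a robust quasi-likelihood fit with 1 mean per group over all 40 libraries. Tests were 2-sided, adjusted by Benjamini-Hochberg over all tested probes. Alternatives were other scalings, no filter, DESeq2 1.42.0, limma 3.58.1 (voom), the acinar share as a covariate, fewer libraries and each library left out in turn. The code was tested on simulated data. Of 10 pairwise comparisons, 2 were added after the data were seen.

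Members and gene lists were chosen with earlier results of these data known. Named were members called in any comparison, Col6a3, Fbn1, Bgn, the highest-level tested probe of each role, and the 3 uncalled members with the smallest p in each comparison with control. The values of 1 member are not reported here. Symbols are in mouse case, all 51 matched in a RefSeq table. A promoter entry was found for 30 symbols. A probe may also detect near-identical family members. Depth, from 1763440 to 7904819 counts per library, limits the precision of low probes.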

Additional observations from a re-analysis of the deposited data

Results flagged for a closer look

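In log2 CPM (prior count 2), 123 sets of 1 named probe in 1 group were screened with Dixon's 95% value. Of these, 20 had a single library set apart by more than that value. Chance alone gives about 1 in 20 for normal values, but that rate does not hold for sets with many values at 0. Where all other libraries of a set were at 0, as for each flag of Col6a1, Itgb1bp1 and Serpina3n, a flag was certain. Control replicate 5, the shallowest control, was low at -1.26 (0 counts) for Serping1, Lama2, Col6a2 and Col4a1. Control replicate 2 was high for the first Itgae probe at 8.91, where the next control was at 7.78, and control replicate 3 for Itgb1bp1 at 3.07. With Cr(VI), replicate 3 was high for Col6a3 at 7.52 and Itgb1bp1 at 3.04 and low for Adam10 at 7.32, replicate 6 was low for Itgb5 at 5.45, replicate 5 high for Col6a1 at 2.39 and replicate 4 high for Serpina3n at 3.19. At 6000 ppm captan, replicate 3 was low for Serping1 at 4.26. At 12000 ppm captan, replicate 1 was high for Fbn1 at 6.76, replicate 7 for Col6a1 at 1.08 and replicate 2 for Serpina3n at 3.47, while replicate 5 was low for Itgb1 at 7.09. With folpet, replicate 1 at 16000 ppm was high for Fbn1 at 6.30, replicate 1 at 6000 ppm was high for Col6a1 at 1.91, and replicate 5 at 6000 ppm was low for Col4a1 at 3.94.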

How the results depend on the processing

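No paired analysis was possible because the labels give no replicate numbers that pair libraries across groups. Scaling by library totals alone left, against control, 0 called members at both captan doses and at 6000 ppm folpet and 1 at 16000 ppm folpet, 0 for the folpet dose step, 0 for Cr(VI) against 16000 ppm folpet, and 2 for any difference among groups. DESeq2 called 4 at 6000 ppm captan, 12 at 16000 ppm folpet, 1 between captan and folpet at 6000 ppm and 8 for Cr(VI) against 16000 ppm folpet. limma called 1 at 6000 ppm captan and 1 for Cr(VI) against 12000 ppm captan. With the acinar share as a covariate the counts were 1 at 6000 ppm captan and 0 for Cr(VI) against 12000 ppm captan. Without libraries over 50% acinar they were 1 at 6000 ppm captan, 4 at 6000 ppm folpet and 0 for Cr(VI) against 12000 ppm captan. The 1 at 6000 ppm captan was Col6a2, and the main calls there, Col6a3 and Fbn1, were both lost. With only the compared groups fitted they were 0 and 1 at the lower and higher captan dose, 1 at 6000 ppm folpet and 7 for Cr(VI) against 16000 ppm folpet. Without the filter, 13 were called for any difference. The share of all probes called under each setting, or with a library left out, is not given beside these counts. A count that moves may therefore follow a change in calls over all probes.

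Leaving out 1 library at a time gave 2 to 3 calls for Cr(VI), 1 to 4 and 3 to 5 for captan and 1 to 4 and 7 to 11 for folpet at the lower and higher dose, 0 to 4 for the folpet step, 0 to 4 for Cr(VI) against 12000 ppm captan and 6 to 13 for any difference. The highest counts came without control replicate 5: 4 and 5 for captan, 4 and 11 for folpet and 13 for any difference.

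Among log2 fold changes of named members, 11 values changed sign, none of them where the change was called both before and after. By library totals alone these were Col4a2 with Cr(VI) (-0.215) and at 12000 ppm captan (0.0306), Mmp14 (0.0472) and Bgn (0.0555) at 12000 ppm captan, the other Itgae probe at 6000 ppm captan (0.11), Bgn at 6000 ppm folpet (0.19) and Col4a2 for Cr(VI) against 12000 ppm captan (-0.25). Without libraries over 50% acinar they were Bgn with Cr(VI) (0.10) and at 6000 ppm folpet (0.0598). Without control replicate 3 Mmp14 with Cr(VI) turned to 0.0432 (-0.239 to 0.0432 with each library left out), and without control replicate 2 the other Itgae probe at 6000 ppm captan turned to 0.0302 (-0.394 to 0.0302). The causes were not tested.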
